A study of Mus musculus with 6 samples.

Results

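The genes described here are 10 that the cell uses to switch off mitogen-activated protein kinase (MAPK) signalling: the dual-specificity phosphatase genes Dusp1, Dusp2, Dusp4, Dusp5, Dusp6, Dusp8 and Dusp10, the Sprouty genes Spry2 and Spry4, and the Sprouty-related gene Spred1. They were picked by symbol from a table of 25407 gene rows, and each symbol stood on 1 row. RNA came from CT26.WT, a line of mouse colon carcinoma cells, as 3 libraries from a control group and 3 from a treated group. In the treated group a copper oxide particle with gold and manganese, Cu2O@AuMn@HA, was combined with NIR (near-infrared) light and with NaHS, which releases hydrogen sulfide. All 6 libraries share the cell line, and neither doses and times nor what the control cells received is stated in the labels. Particle, NaHS and light were present together in every treated library, so their effects cannot be told apart.

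MAPK cascades carry growth factor and stress signals to the nucleus through the kinases ERK, JNK and p38, which are active only while phosphorylated. Dual-specificity phosphatases remove those phosphates, and Sprouty and Spred proteins act further upstream, between the receptor and RAF. Many of these genes are themselves switched on by the cascades they restrain, which makes them negative feedback regulators and common readouts of pathway activity.

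Of the 10 genes, 8 rose in treated cells and 0 fell (edgeR's quasi-likelihood test on estimated counts, Benjamini-Hochberg adjusted p under 0.05). Over the whole table, 23.0% of 16212 tested rows rose and 23.5% fell. No member was lower at an unadjusted p under 0.05 either, and none was called lower by DESeq2, limma or any other of 18 alternative settings. The 10 log2 fold changes had a median of 0.57 (0.51 to 0.64 with 1 library left out), against 0.06 for all tested rows. Dusp4, Dusp10 and Dusp1 at least doubled, 3 of 10 against 9.87% of tested rows called and raised that far. In 9 of 10 genes every treated library stood above every control library in FPKM (fragments per kilobase of transcript, scaled to library size), a pattern that 30.4% of tested rows showed. The exception was Spred1. Dusp2 and Spry4, whose groups did not overlap, missed the threshold. Whether more RNA per cell or a different share of surviving cells lies behind such a difference cannot be told apart in bulk RNA.

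**Figure D1:**
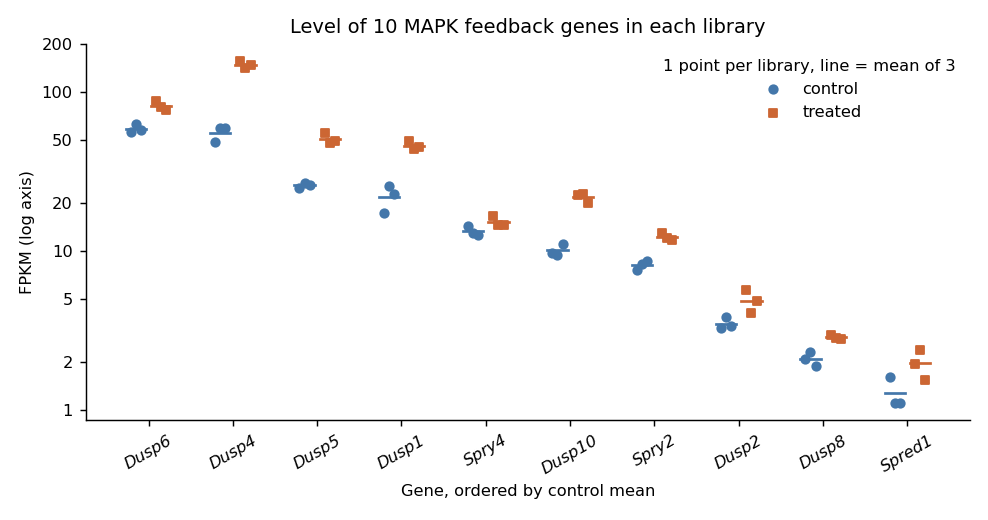
FPKM (log axis) of each of the 10 genes in the 3 control and 3 treated libraries, 1 point per library, with the group mean as a line. In 9 of 10 genes the treated points all lie above the control points, and Dusp4 moves furthest, from a mean of 55.5 to 149 FPKM.

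Dusp4 encodes a nuclear phosphatase whose substrates include ERK and JNK. It stood at 48.4, 59.1 and 59.0 FPKM in control libraries 1 to 3 and at 156, 142 and 148 FPKM in treated libraries 1 to 3. The treated libraries lay close together, and the lowest of them was more than double the highest control. Its log2 fold change of 1.38 ± 0.10 (SE, n = 3 per group), or 2.61-fold, was the largest of the 10 genes as reported (edgeR adjusted p = 6.59e-06).

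Dusp1, an immediate early gene for a nuclear phosphatase of p38, JNK and ERK, was measured at 17.3, 25.7 and 22.7 FPKM in control and 49.1, 43.5 and 45.0 FPKM in treated libraries. Control 1 was the low library of its group, and the groups were far apart. The log2 fold change was 1.02 ± 0.14 (edgeR adjusted p = 0.000265), with 0.85 without control 1 and 1.16 without control 2 as its extremes when 1 library was left out. The Dusp1 row also lists a noncoding transcript that GENCODE M21 places far upstream of the phosphatase's own transcripts. The row therefore overlaps Ergic1, Gm50275, Gm8225 and Gm56886, and its reads are less certain than those of a gene that stands alone.

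Dusp5, whose nuclear product is specific for ERK and holds it there, stood at 25.0, 26.6 and 26.1 FPKM in control and 55.0, 47.6 and 48.9 FPKM in treated libraries. The control libraries were nearly level, and treated 1 was the highest of a group that stood well clear of them. The rise was 1.9-fold, 0.92 ± 0.08 on the log2 scale (edgeR adjusted p = 1.44e-05).

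Dusp2, the last of the nuclear, inducible phosphatases, is best known from activated lymphocytes and was scarce here. Control libraries gave 3.28, 3.82 and 3.38 FPKM and treated libraries 5.72, 4.05 and 4.82 FPKM. Treated 2 was only just above control 2. The log2 fold change of 0.44 ± 0.17 did not pass (edgeR adjusted p = 0.0592), although it did without treated 2, at 0.54 (adjusted p = 0.0267), and after GC correction, at 0.60 (adjusted p = 0.00455). Between 510 and 774 estimated counts lay behind each of these values, the fewest of the 10 genes.

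Dusp6, a cytoplasmic phosphatase specific for ERK and a standard readout of ERK activity, was the most abundant of the 10 in control cells, at 55.7, 62.9 and 57.6 FPKM. Treated libraries held 87.7, 80.3 and 76.8 FPKM, all above the controls. The rise was modest, at a log2 fold change of 0.43 ± 0.09 or 1.35-fold (edgeR adjusted p = 0.00229), and remained called under all 18 alternatives, at 0.37 to 0.55.

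Dusp10 and Dusp8 encode phosphatases that act mainly on JNK and p38. Dusp10 stood at 9.74, 9.47 and 11.05 FPKM in control and 22.4, 22.7 and 20.2 FPKM in treated libraries, and rose by 1.07 ± 0.08 on the log2 scale (edgeR adjusted p = 9.29e-06). Its groups were tight and clearly apart. Dusp8 stood at 2.08, 2.33 and 1.88 FPKM and at 2.98, 2.83 and 2.80 FPKM. It rose by 0.41 ± 0.14 on the log2 scale (edgeR adjusted p = 0.0306), with no overlap between groups, but the call was lost without control 1 (adjusted p = 0.0831), control 3 (0.128), treated 1 (0.109), treated 2 (0.0562) or treated 3 (0.0584). Of this pair, then, the more abundant gene carried the larger and steadier rise.

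Spry2 and Spry4 encode membrane-associated proteins that damp signalling from growth factor receptors to RAS and RAF. Spry2 was measured at 7.53, 8.30 and 8.62 FPKM in control and 12.9, 12.1 and 11.7 FPKM in treated libraries. It rose by a log2 fold change of 0.55 ± 0.10, 1.46-fold (edgeR adjusted p = 0.00181), and every treated library was higher. Spry4 stood at 14.4, 13.0 and 12.6 FPKM in control and 16.5, 14.5 and 14.5 FPKM in treated libraries. Control 1 nearly reached treated 2 and treated 3, and the log2 fold change of 0.15 ± 0.08 did not pass (edgeR adjusted p = 0.151). With GC correction Spry4 was called, at 0.33 (adjusted p = 0.00314), as it was with library totals only (0.23) and with rows averaging under 1 FPKM removed (0.22).

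Spred1, which brings neurofibromin to the membrane to turn RAS off, had the lowest level of the 10 genes and the loosest groups. Control libraries gave 1.603, 1.11 and 1.11 FPKM and treated libraries 1.95, 2.40 and 1.53 FPKM, so that control 1 exceeded treated 3. The log2 fold change was 0.59 ± 0.19 (edgeR adjusted p = 0.0316). The call was lost without control 2 (adjusted p = 0.101), control 3 (0.132), treated 1 (0.0834) or treated 2 (0.145) and with no filter on low counts (0.0558), and with GC correction the value was 0.04 (adjusted p = 0.85). The Spred1 transcript had the lowest GC content of the 10, at 41.2%, where the others had 46.2% to 59.2%.

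**Figure D2:**
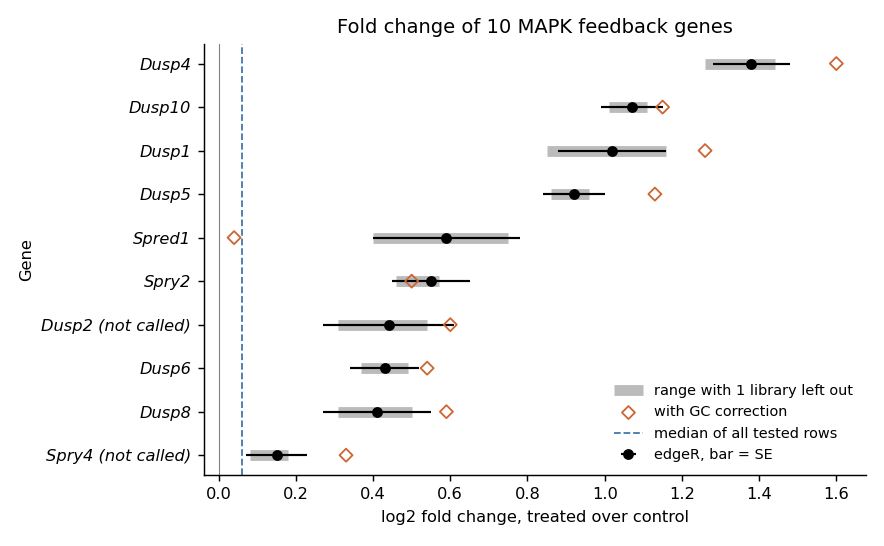
Log2 fold change of each gene, treated over control (black points with SE), its range when 1 library is left out (grey bars) and its value with GC correction (open diamonds), with the median of all tested rows as a dashed line at 0.06. Dusp4, Dusp10, Dusp1 and Dusp5 lie between 0.92 and 1.38 and move up with the correction, while Spred1 moves from 0.59 to 0.04.

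Fold changes over the table fell with transcript GC content (Spearman −0.26 across 10194 rows averaging 1 FPKM or more; rows of 1 table are not independent replicates), and with the correction this value was 0.01. The corrected fit called 9 of the 10 genes higher, all but Spred1. Its values were larger than the uncorrected ones for 8 genes and smaller for Spry2 (0.50) and Spred1. The genes called as reported and under all 18 alternatives numbered 6: Dusp1, Dusp4, Dusp5, Dusp6, Dusp10 and Spry2.

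**Figure D3:**
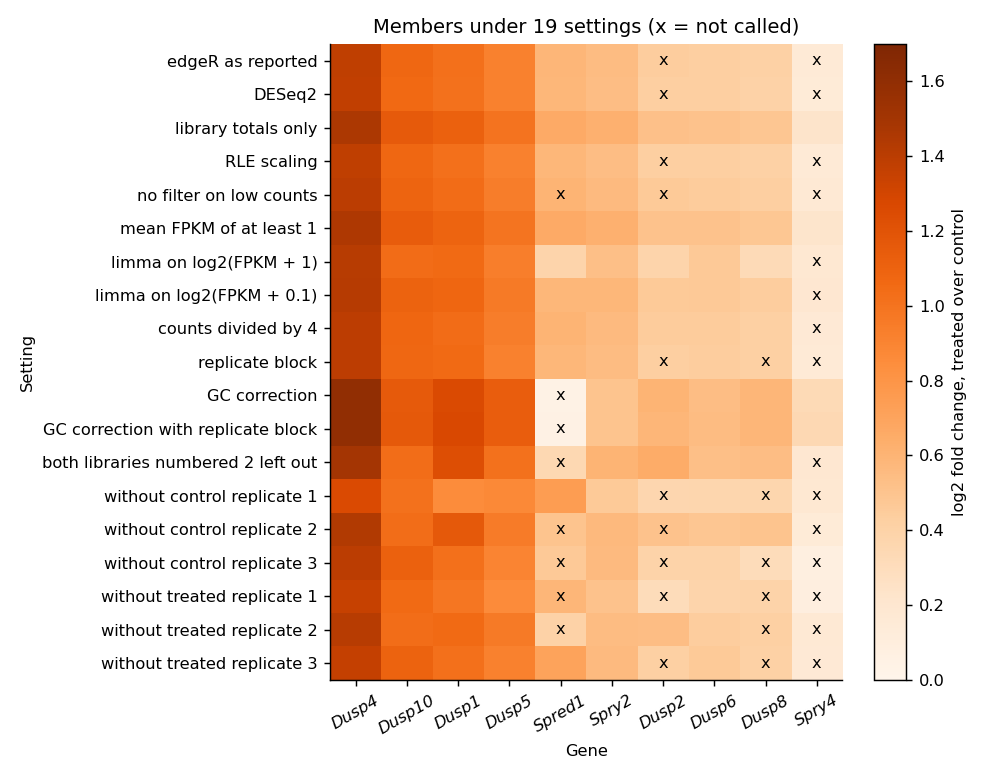
Log2 fold change of each gene (colour) as reported and under each of the 18 alternative settings (rows), with x where the adjusted p is not under 0.05. Every value is above 0; the columns of Dusp4, Dusp10, Dusp1, Dusp5, Spry2 and Dusp6 hold no x, and those of Spred1, Dusp2, Dusp8 and Spry4 do.

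Because FPKM is scaled to transcript length, the levels of different members can be set beside each other. In control cells the order of mean FPKM was Dusp6 (58.8 ± 3.72, SD, n = 3), Dusp4 (55.5 ± 6.14), Dusp5 (25.9 ± 0.819), Dusp1 (21.9 ± 4.29), Spry4 (13.3 ± 0.969), Dusp10 (10.1 ± 0.841), Spry2 (8.15 ± 0.558), Dusp2 (3.49 ± 0.286), Dusp8 (2.1 ± 0.224) and Spred1 (1.27 ± 0.285). Dusp6 and Dusp4 overlapped in range, as did Dusp5 and Dusp1, and the other neighbours did not. In treated cells Dusp4 came first (149 ± 6.92), clear of Dusp6 (81.6 ± 5.55), followed by Dusp5 (50.5 ± 3.95) and Dusp1 (45.8 ± 2.90), which again overlapped. Dusp10 (21.7 ± 1.38) had moved ahead of Spry4 (15.2 ± 1.18), and the last 4 places, Spry2 (12.2 ± 0.616), Dusp2 (4.86 ± 0.839), Dusp8 (2.87 ± 0.0957) and Spred1 (1.96 ± 0.433), were as in control cells. Summed FPKM of the 10 genes went from 200.5 ± 14.0 to 385 ± 21.2, and the part of Dusp4 in that sum from 27.6% ± 1.38 to 38.6% ± 0.908.

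The members did not move by the same factor. A ratio of 2 genes within a library does not depend on how libraries are scaled to each other. The ratio of Dusp4 to Dusp6 was 0.869, 0.940 and 1.02 in control and 1.77, 1.77 and 1.93 in treated libraries, so that ERK's cytoplasmic phosphatase gene was about level with Dusp4 in the first group and well behind it in the second. Dusp10 over Spry4 was 0.676, 0.731 and 0.879 against 1.35, 1.56 and 1.39. Spry2 over Spry4, 2 genes of 1 family, was 0.523, 0.640 and 0.686 against 0.780, 0.834 and 0.807. These ratios were not corrected for transcript GC content, which was 46.2% for Spry2 and 51.2% for Spry4. The log2 fold changes of Spry2 and Spry4 were 0.55 and 0.15 as reported. With GC correction they lay closer together, at 0.50 and 0.33. The gap between Dusp10 and Spry4 narrowed less with the correction, and that between Dusp4 and Dusp6 did not narrow. None of the 3 ratios overlapped between groups. Each gave p = 0.1 in a two-sided exact permutation test (0.1 after adjustment over the 3 ratios), the smallest value that 3 against 3 libraries allow, and the 3 pairs were chosen after their levels were seen.

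**Figure D4:**
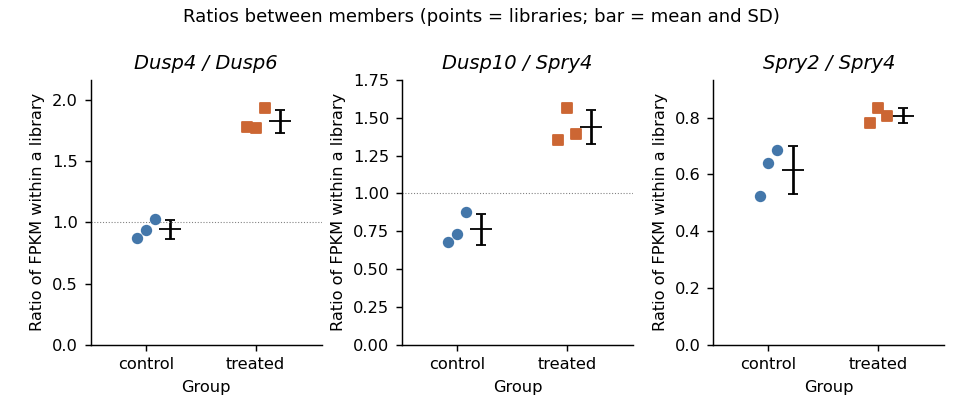
Ratio of FPKM between 2 members within each library, for Dusp4 over Dusp6, Dusp10 over Spry4 and Spry2 over Spry4; points are libraries, bars the mean and SD of 3, and the dotted line marks a ratio of 1. Dusp4 over Dusp6 goes from 0.944 ± 0.0772 to 1.82 ± 0.0936, and Dusp10 over Spry4 crosses 1.

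The members are scattered over the genome. Each row holds a protein-coding transcript in the authors' table, which places Dusp1 (ENSMUSG00000024190) on chromosome 17 (26724564 to 26781102, minus strand), Dusp2 (ENSMUSG00000027368) on chromosome 2 (127178079 to 127180296, plus), Dusp4 (ENSMUSG00000031530) on chromosome 8 (35274451 to 35287048, plus), Dusp5 (ENSMUSG00000034765) on chromosome 19 (53517540 to 53530862, plus), Dusp6 (ENSMUSG00000019960) on chromosome 10 (99099093 to 99103351, plus) and Dusp8 (ENSMUSG00000037887) on chromosome 7 (141633227 to 141649580, minus). Dusp10 (ENSMUSG00000039384) lies on chromosome 1 (183745499 to 183807833, plus), Spry2 (ENSMUSG00000022114) on chromosome 14 (106129381 to 106134253, minus), Spry4 (ENSMUSG00000024427) on chromosome 18 (38719300 to 38734468, minus) and Spred1 (ENSMUSG00000027351) on chromosome 2 (116951855 to 117012760, plus). The sources used here do not give the build of these positions. The rows of Dusp5, Dusp8, Dusp10 and Spry4 each overlap at least 1 predicted or clone-named gene on the other strand, and those of Dusp2, Dusp4, Dusp6, Spry2 and Spred1 overlap none.

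In the authors' annotation all 7 phosphatase genes carry the Gene Ontology term for MAP kinase tyrosine/serine/threonine phosphatase activity, which 12 rows of the table hold, and all 7 belong to the KEGG MAPK signaling pathway, with 265 rows. The Reactome entry for nuclear phosphatases of MAP kinases holds 9 rows, 6 of them members, with Dusp6 as the phosphatase left out. Short-lived messages often carry the pentamer ATTTA near their end, where decay factors bind. In the last 500 bases of the longest coding transcript (GENCODE M21), ATTTA occurred at least once in 9 of 10 members, against 51.5% of 21425 protein-coding genes, and at least 2 times in 5 of 10, against 23.2%. Dusp2 held 4 copies, Dusp10 and Spry4 held 3 each, Dusp1 and Spry2 held 2 each, and Dusp8, one of the genes with a small rise, held 0. A copy of the letters is not evidence that a decay factor binds. Dusp2 and Spry4, with 4 and 3 copies, were the members that were not called.

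Sequence upstream of the start was read for 8 of the 10 genes from RefSeq (GRCm38.p6), as the 250 bases before the annotated start. Dusp4 and Spry4, the members with the largest and smallest log2 fold changes (1.38 and 0.15), were not read. Motifs were searched on both strands, and shares refer to 32851 such windows of the same length. The full cAMP response element TGACGTCA, bound by CREB and ATF factors, was present in the windows of Dusp1 and Dusp8 (1.55% of all windows), and its core TGACG, which lies within it, in Dusp1, Dusp5 and Dusp8 (17.8%). The CArG box, bound by serum response factor, occurred in Dusp5 (1.47% of all windows), as a pair of boxes placed end to end at −82 to −73 and −72 to −63 from the start. The hypoxia response core ACGTG was present in Dusp1, Dusp2, Dusp5 and Spred1 (16.6%). The AP-1 site TGANTCA (6.75%), the ETS-type letters CCGGAA (12%) and the heat shock pair GAANNTTC (6.69%) were in none of the 8 windows. Nor were the TATA box letters TATAAA (12.4%) or the NF-kappaB site (7.25%). Shorter ETS letters such as GGAA were not searched.

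The windows of Dusp1 (chr17:26508473-26508722, minus strand), Dusp5 (chr19:53528895-53529144, plus strand) and Dusp8 (chr7:142095285-142095534, minus strand) are shown because they hold these elements. They are written 5′ to 3′ toward the start, and capitals mark the cAMP response element core or full site and the CArG boxes.
Dusp1: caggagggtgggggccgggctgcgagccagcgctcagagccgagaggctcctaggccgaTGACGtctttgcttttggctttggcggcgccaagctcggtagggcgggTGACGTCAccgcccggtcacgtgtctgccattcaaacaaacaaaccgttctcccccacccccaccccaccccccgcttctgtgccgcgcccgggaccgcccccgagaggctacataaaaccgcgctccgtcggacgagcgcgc
Dusp5: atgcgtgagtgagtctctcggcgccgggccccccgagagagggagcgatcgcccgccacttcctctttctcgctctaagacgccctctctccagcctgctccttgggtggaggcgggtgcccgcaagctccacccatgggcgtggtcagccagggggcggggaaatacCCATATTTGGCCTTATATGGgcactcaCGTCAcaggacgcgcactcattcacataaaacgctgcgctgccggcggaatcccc
Dusp8: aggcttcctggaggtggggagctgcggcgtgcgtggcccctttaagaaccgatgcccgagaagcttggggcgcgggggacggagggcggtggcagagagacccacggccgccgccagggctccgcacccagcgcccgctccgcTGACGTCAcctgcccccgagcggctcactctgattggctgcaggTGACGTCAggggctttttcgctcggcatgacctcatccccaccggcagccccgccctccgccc
In Dusp1 a core stood at −191 to −187 and a full element at −143 to −136. In Dusp8 full elements stood at −107 to −100 and −63 to −56, and in Dusp5 a core on the opposite strand stood at −55 to −51. Dusp1 and Dusp5 rose by 1.02 and 0.92 on the log2 scale and Dusp8 by 0.41, while Dusp10, at 1.07, held none of the motifs searched. These letters were shared by genes with large and small rises and are a description of the sequence only.

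The rest of the pathway was read from 7 lists, in which 110 genes had a row, 109 were tested and 61 changed. Over the whole table, 7548 of 16212 tested rows changed. Of these 16212 rows 23.0% rose and 23.5% fell, the shares to set beside the counts of each list. Of 5 tested genes among the other MAPK phosphatase, Sprouty and Spred genes, 2 rose and 1 fell, with a median log2 fold change of 0.15 (−0.01 to 0.30 with 1 library left out). Dusp7, a cytoplasmic phosphatase of ERK like Dusp6, rose from 7.50 ± 0.270 to 10.4 ± 0.943 FPKM (0.43 ± 0.09; edgeR adjusted p = 0.00431), close to the log2 fold change of Dusp6. Spred3 rose by 0.42 ± 0.10. Spred2 fell by 0.34 ± 0.11, a call lost in 7 of 18 alternatives, among them GC correction (adjusted p = 0.205), library totals only (0.0835) and the fits without control 2 (0.0641) and without treated 3 (0.0651). Dusp9, the third phosphatase of the Dusp6 type, stood at 24.4 ± 2.94 and 21.7 ± 1.98 FPKM (adjusted p = 0.18).

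Atypical DUSP genes encode small phosphatases without the MAPK-binding domain of the members. Of 11 tested, 3 rose and 4 fell, or 1 and 2 with GC correction. Dusp3 fell from 7.76 ± 0.557 to 4.79 ± 0.0271 FPKM (−0.73 ± 0.08; edgeR adjusted p = 9.55e-05), and Dusp14 fell by 0.28 ± 0.08, a call lost without treated 1 (adjusted p = 0.0711) and with GC correction, at −0.09 (0.287). Dusp11, which acts on RNA, rose by 0.52 ± 0.12, or 0.24 with the correction (adjusted p = 0.0626). Dusp12 stood at 6.47 ± 0.414 and 5.61 ± 0.542 FPKM (adjusted p = 0.117).

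Among 19 other tested inhibitors of receptor and RAS signalling, not all of which act above RAS, 6 rose and 4 fell. Their median was 0.04 (−0.00 to 0.08 with 1 library left out). Errfi1, a feedback inhibitor of the EGF receptor, rose from 46.8 ± 1.05 to 68.3 ± 6.17 FPKM (0.51 ± 0.07; edgeR adjusted p = 0.000398). The RAS GTPase-activating protein genes Rasa3 and Dab2ip fell by 0.63 ± 0.08 and 0.62 ± 0.09. Pebp1, which binds RAF, went from 328 ± 6.84 to 384 ± 21.8 FPKM without passing (adjusted p = 0.0833), and passed with GC correction at 0.40 (0.000128).

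In the cascades that the members restrain, more genes fell than rose at the level of RNA. Over all tested rows, 23.0% rose and 23.5% fell. Of 20 tested genes of the RAS to ERK cascade, 2 rose and 6 fell, with a median of −0.04. With GC correction 4 rose and 9 fell, with a median of −0.23. Map2k1, the kinase MEK upstream of ERK, rose from 26.4 ± 0.856 to 45.6 ± 4.10 FPKM (0.75 ± 0.08; edgeR adjusted p = 4.99e-05). The other gene that rose, named after its value was seen, was Shoc2, a RAF activator (1.13 ± 0.25, or 0.49 with GC correction). Ptpn11, the phosphatase SHP2 that passes receptor signals to RAS, fell by 0.75 ± 0.08. Mapk3, which encodes an ERK kinase, stood at 291 ± 10.1 and 316 ± 20.3 FPKM (adjusted p = 0.456), and was called with GC correction at 0.28 (adjusted p = 0.000666).

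In the JNK and p38 cascade, 2 of 19 tested genes rose and 6 fell, with a median of −0.11. The shares over all tested rows were 23.0% and 23.5%. With GC correction 2 rose and 4 fell, and the median turned to 0.06. The p38 genes Mapk14 and Mapk11 fell, Mapk14 from 17.2 ± 1.39 to 10.4 ± 0.142 FPKM (−0.77 ± 0.09) and Mapk11 from 20.4 ± 0.616 to 13.3 ± 0.750 FPKM (−0.66 ± 0.08; edgeR adjusted p = 7.32e-05 and 0.000178). Map3k20, a kinase activated by stalled ribosomes, fell by 1.07 ± 0.12. Those that rose, named after their values were seen, were Mapk8, a JNK gene, at 1.22 ± 0.27 from a mean of 0.301 FPKM (0.54 with GC correction), and Map2k6, a kinase of p38, at 0.57 ± 0.14. Mapkapk2, a target of p38, averaged 67.9 ± 1.58 FPKM in control and 60.2 ± 4.39 in treated libraries (adjusted p = 0.0655), and was called when treated 3 was left out (−0.28, adjusted p = 0.0175).

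Transcripts used as readouts of ERK signalling split in direction. Of 17 tested, 9 rose and 5 fell, with a median of 0.27. Egr1, an immediate early transcription factor gene, rose from 45.5 ± 5.58 to 130.7 ± 4.27 FPKM (1.48 ± 0.11; edgeR adjusted p = 5.54e-06), Ier3 from 114 ± 21.2 to 283 ± 14.8 FPKM (1.27 ± 0.14) and the cytokine gene Lif by 0.85 ± 0.10. The others that rose, named after their values were seen, were Phlda1 (0.94 ± 0.12), Epha2 (0.67 ± 0.09), Plaur (0.45 ± 0.09), Slc20a1 (0.43 ± 0.10), Tnfrsf12a (0.34 ± 0.09) and Plk3 (0.27 ± 0.09). Plk3 was called in 13 of 18 alternatives and Tnfrsf12a in 17. The 5 that fell, named after their values were seen, were the ETS factor genes Etv4 (−0.39 ± 0.08) and Etv5 (−0.39 ± 0.08), the AP-1 gene Fosl1 (−0.47 ± 0.08), the cyclin gene Ccnd1 (−0.31 ± 0.07) and Map2k3 (−0.22 ± 0.08). Etv4, Etv5, Fosl1 and Ccnd1 remained lower under all 18 alternatives, with GC correction at −0.21, −0.19, −0.29 and −0.13, whereas the call of Map2k3 held in 5 of 18. Dusp6 and Spry2, which are read together with Etv4 and Etv5 as ERK outputs, were higher in treated cells while both ETS genes were lower. Spry4, of the same family as Spry2, was not called as reported. These genes were set side by side after their values were seen. Myc averaged 72.6 ± 9.97 FPKM in control and 60.7 ± 4.06 in treated libraries (adjusted p = 0.0594), and was called when control 1 was left out (−0.41, adjusted p = 0.0137).

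Of 19 tested factors that can act on the promoters of these genes, 9 rose and 3 fell, with a median of 0.48 (0.16 with GC correction, where 8 rose and 4 fell). Junb rose from 80.2 ± 6.18 to 185 ± 12.5 FPKM (1.17 ± 0.10), Jun from 25.6 ± 2.46 to 44.2 ± 2.17 FPKM (0.75 ± 0.09) and Ets1 by 0.51 ± 0.08 (edgeR adjusted p = 1.46e-05, 0.000137 and 0.00047). Also higher, and named after their values were seen, were Fos (0.83 ± 0.19), Fosb (0.51 ± 0.11) and Nr4a1 (0.54 ± 0.10). Crem (1.17 ± 0.29), Hif1a (0.80 ± 0.21) and Creb1 (0.48 ± 0.16), likewise named afterwards, rose too. With GC correction Hif1a and Creb1 were not called, at 0.25 and −0.25 (edgeR adjusted p = 0.149 and 0.177). The 3 that fell, named after their values were seen, were Srf, the factor of the CArG box, from 24.2 ± 0.855 to 19.1 ± 1.47 FPKM (−0.38 ± 0.09), its partner Elk1 (−0.45 ± 0.11) and Ets2 (−0.38 ± 0.08). The call of Elk1 was lost without both libraries numbered 2 (adjusted p = 0.0551), and that of Ets2 with GC correction and a replicate block together (−0.17, adjusted p = 0.0814). Jund stood at 144 ± 16.4 and 139 ± 7.65 FPKM (adjusted p = 0.493).

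**Figure D5:**
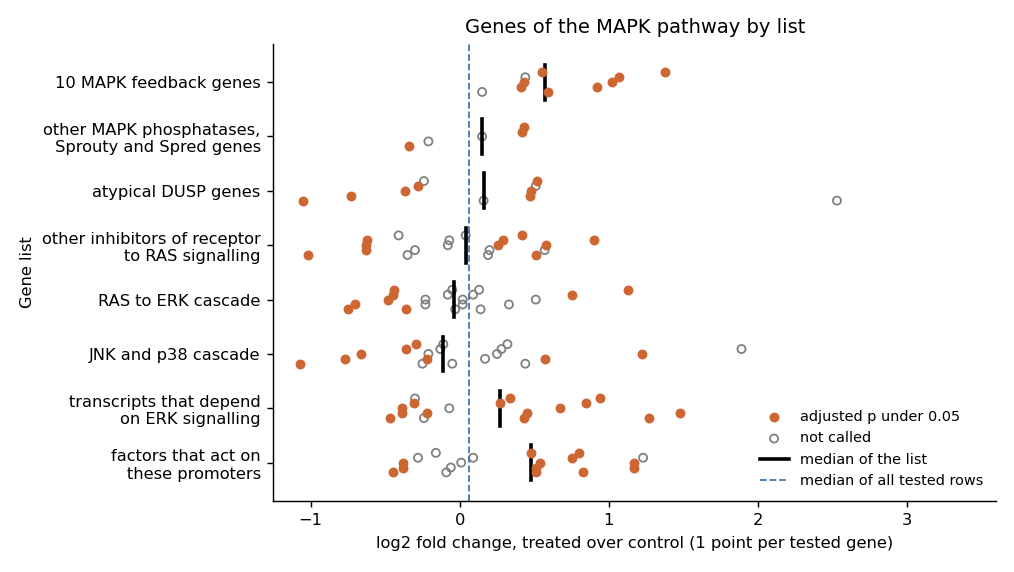
Log2 fold change, treated over control, of each tested gene in the 10 members and 7 pathway lists (1 point per gene; filled where adjusted p is under 0.05), with the list's median as a bar and the median of all tested rows as a dashed line. The members lie at 0.15 to 1.38 with a median of 0.57, the kinase lists have medians of −0.04 and −0.11 (−0.23 and 0.06 with GC correction, not drawn), and the ERK readouts fall on both sides of 0.

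Control libraries summed to between 71409968 and 81821380 estimated counts, and treated libraries to between 62328377 and 70323604. Ribosomal RNA rows took 3.62% to 3.94% of control and 0.251% to 0.260% of treated counts, and mitochondrial rows 1.25% to 1.86% and 1.96% to 3.45%. The part of these differences in the members' values was not tested. Of 10 epithelial markers, 7 had a mean under 1 FPKM, with Epcam and Cdh1 at 0 in the control mean. Krt18 and Krt20 were expressed (65.4 and 90.3 FPKM in control), as was the mesenchymal gene Vim (925 FPKM), so the libraries had keratins and vimentin without the usual epithelial adhesion genes. Of 7 mesenchymal markers, 3 rose and 0 fell, and of 6 tested epithelial markers 3 rose and 1 fell. Among keratins Krt19 rose by 2.29 ± 0.33, from 0.135 to 0.694 FPKM, Krt18 rose by 1.28 ± 0.10, and Krt20 fell by 0.69 ± 0.07. The mesenchymal genes Twist1, Fn1 and Vim rose by 1.01 ± 0.08, 0.96 ± 0.09 and 0.45 ± 0.07. The 6 immune markers with a row summed to 2.94 to 3.24 FPKM in control and 2.77 to 4.15 in treated libraries, most of it Lyz2 (2.74 and 2.70 FPKM), with Ptprc at 0 in the control mean and 0.000973 in treated cells. The 5 endothelial markers summed to at most 0.223 FPKM in any library. Of the markers tested, 1 of 4 immune and 1 of 2 endothelial genes rose and 0 fell. The immune gene was Itgax, from 0.226 ± 0.0853 to 0.553 ± 0.159 FPKM (1.25 ± 0.33; edgeR adjusted p = 0.0117, or 0.0544 without treated 3), and the endothelial gene was Vwf, from 0.0831 ± 0.0261 to 0.166 ± 0.00455 FPKM (0.96 ± 0.27; adjusted p = 0.0152). Of 6 tested fibroblast markers, 1 rose and 4 fell, and all 8 summed to 110 to 121 FPKM in control and 70.1 to 79.1 in treated libraries. The collagen genes fell, Col1a1 by 1.08 ± 0.08 (31.1 to 15.1 FPKM) and Col3a1 from 11.4 ± 1.06 to 4.13 ± 0.260 FPKM (edgeR adjusted p = 2.95e-06), and Dcn rose by 2.24 ± 0.20 (0.191 to 0.925 FPKM). The part of these marker changes in the members' values was not tested. Lum and Thy1 were at or under 0.0229 FPKM in both group means.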

How the data were processed

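Oligo-dT selected RNA of 3 control and 3 treated CT26.WT libraries was sequenced with strand marking, per the labels' protocols. Tools listed in the submitters' processing notes, with no roles, are StringTie 2.1.6, HISAT2 2.2.1, cutadapt 1.9, edgeR and DESeq2. The authors deposited FPKM values and estimated counts for each gene and library; the sources used here give no genome build, annotation or strand setting. Estimated counts were whole numbers that favoured steps of 4 (the value 4 occurred 4054 times, against a mean of 2539.5 for 3 and 5), so counts divided by 4 were tried too.

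Estimated counts were tested with edgeR 4.0.16 (R 4.3.3; filterByExpr, TMM scaling, quasi-likelihood test) and p-values adjusted by Benjamini-Hochberg over the 16212 rows that passed the filter; 9195 of 25407 rows were not tested. The SE is the log2 fold change over the root of its F statistic. All 10 members passed. Nothing in the labels says that libraries of a group were separate cultures, and the p-values then reflect only how these libraries vary, which may be technical. Alternatives, with DESeq2 1.42.0 and limma 3.58.1 among them, were other scaling, filters, pseudocounts (1 and 0.1), a replicate block, a loess GC correction (span 0.4, 15760 rows) and leaving out libraries. The members and lists were chosen with earlier results of these data known. Beside the members, the text names in each list up to 3 called genes with the smallest p and the most abundant gene not called; other names are stated as chosen after their values were seen, and 1 gene that the rule names is not reported here. On simulated counts for this comparison (15243 genes), the test recovered 76% of 100 genes changed 2-fold and 97% of 100 changed 4-fold, and called 15 unchanged genes.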

Additional observations from a re-analysis of the deposited data

How the results depend on the processing

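All 10 members had a log2 fold change above 0 under each of 18 alternatives, and 6 to 10 were called higher (8 as reported). The count was 10 with library totals only and with rows averaging under 1 FPKM removed, 7 without a filter on low counts, and 6 to 7 with 1 library left out, the 6 without control 3 or treated 1. Over the table, 6073 to 7753 rows were called (7548 as reported), and of the pathway genes 44 to 64 (61 as reported). With library totals only, 4183 rows were higher and 3351 lower, against 3735 and 3813, and the median of all rows was 0.13 in place of 0.06. Map2k3 lost its direction with GC correction (0.00) and with GC correction and block together (0.01); the cause was not tested. Replicate numbers showed no sign of pairing: same-numbered libraries had deviations correlated at 0.0399, −0.103 and 0.00672, and not every library matched its own number best. These values cannot show whether the libraries were prepared as pairs. With a replicate block 7 members were called, Dusp8 losing its call (0.42, adjusted p = 0.0757), 3070 rows were higher and 3205 lower, 6275 in all. The members rested on 510 to 30444 estimated counts per library, and depth as a limit was not tested.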
